A study of Mus musculus with 14 samples.

Results

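The 2′,5′-oligoadenylate synthetase (OAS) genes Oas1a, Oas1g, Oas2, Oas3, Oasl1 and Oasl2 and the myxovirus resistance (MX) genes Mx1 and Mx2 were followed in mouse macrophages given Poly I:C, LPS or both in turn. The 8 genes were picked by name from the 38683 gene names in the deposited expression table. They occupied 7 of its 39721 entries, since Oas1a and Oas1g shared 1 merged entry with Oas1h, written Oas1a-Oas1g-Oas1h below, whose value cannot be divided between the 3 genes. Macrophages had been grown from bone marrow of male C57Bl6/J mice in medium conditioned by L929 cells, a source of the growth factor CSF-1. They received Poly I:C, a synthetic double-stranded RNA, at 100 ng/mL or PBS for 24 h, were washed, and then received LPS, an outer membrane lipid of bacteria that TLR4 senses, or PBS for 2 h or 6 h. The groups were Poly I:C then LPS, Poly I:C then PBS, and PBS then LPS, with 2 libraries at each time, and PBS then PBS, with 1 library at each time. No genotype other than the C57Bl6/J strain was stated, nor the dose of LPS given second.

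OAS proteins bind double-stranded RNA and join ATP into short 2′,5′-linked oligoadenylates (2-5A), which set off the cutting of viral and cellular RNA. MX proteins are dynamin-like GTPases that assemble on viral nucleocapsids and block their replication. Both families are induced when type I interferon, made by macrophages after TLR3, TLR4 or cytosolic RNA sensors are engaged, signals through its receptor to the factor ISGF3, which binds interferon-stimulated response elements in the genes' promoters.

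Promoter sequence is shown first because these genes are grouped by a shared signal, and the interferon-stimulated response element core can be looked for directly. RefSeq promoter windows of GRCm38.p6, which run from 250 bases before to 50 bases after a gene's start, were held for 5 of the 8 genes, Oas1a, Oas1g, Oas3, Oasl1 and Oasl2. That core, read as GAAA, any 2 bases and GAAA, was found on either strand in 1131 of 32851 windows, or 3.44%, and in those of Oas1a, Oas1g and Oas3. The 120 bases before each start are printed 5′ to 3′ on the gene's own strand, with matches to the core in capitals. The 3 windows are Oas1a at chr5:120907526-120907645, Oas1g at chr5:120887614-120887733 and Oas3 at chr5:120777660-120777779, all on the minus strand.
Oas1a: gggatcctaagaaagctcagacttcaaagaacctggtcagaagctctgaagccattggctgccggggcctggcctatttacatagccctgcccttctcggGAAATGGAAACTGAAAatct
Oas1g: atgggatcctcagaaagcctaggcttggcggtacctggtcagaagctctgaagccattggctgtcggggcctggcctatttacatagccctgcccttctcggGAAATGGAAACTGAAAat
Oas3: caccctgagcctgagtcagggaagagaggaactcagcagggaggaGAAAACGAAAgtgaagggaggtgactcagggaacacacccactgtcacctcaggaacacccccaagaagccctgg
In Oas1a and Oas1g the capitals hold the core in 2 overlapping copies, starting at base -20 and -14 of Oas1a and at -18 and -12 of Oas1g. All of the Oas1a capitals but the first lie inside that gene's RefSeq record, which begins at 120907544. In Oas3 the single match starts at -75. The windows of Oas1a and Oas1g were 85.3% identical, and their coding sequences in GENCODE M21 were 96.7% identical, so reads from these neighbours are hard to assign even before the entry is merged.

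The windows of Oasl1 and Oasl2 hold no match to this core. The 120 bases before the start of Oasl2, chr5:114896814-114896933 on the plus strand, are shown for comparison, with no base in capitals.
Oasl2: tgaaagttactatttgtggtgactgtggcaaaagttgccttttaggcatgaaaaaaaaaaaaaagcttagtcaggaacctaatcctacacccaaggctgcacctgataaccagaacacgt
Starts here are those of the RefSeq windows. The RefSeq gene record begins further upstream in Oas1a, at 120907544, in Oas3, at 120777684, and in Oasl2, at 114896926, each within the printed bases, and in Oasl1, at 114923143. Oasl1 holds 1 match to the kappa B core, read as GGGA, any 4 bases and CC, starting at -13 and so inside that gene record, a core present in 20.7% of all windows. The interferon-gamma activated site core, read as TTC, any 3 bases and GAA and present in 8.3% of windows, was matched once, in Oas1a at -98. A match is only a run of letters, and its absence says nothing of a factor outside these windows.

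On GRCm38 the entries lie in 3 places. Oas2 (chromosome 5, 120730210 to 120749936), Oas3 (120753098 to 120777661) and the merged entry (120861421 to 120907548) share 1 stretch. Oas1b, Oas1c, Oas1e and Oas1f lie between Oas3 and the merged entry. Oasl2 (chromosome 5, 114896419 to 114912237) and Oasl1 (114917318 to 114937915) form a pair of their own, and Mx1 (chromosome 16, 97445937 to 97463771) and Mx2 (97535302 to 97560902) form another. RefSeq classes both Mx1 and Mx2 of this reference strain, C57BL/6J, as transcribed pseudogenes, while GENCODE M21 lists Mx2 as a polymorphic pseudogene and Mx1 as protein coding. Their values are therefore transcript levels and not measures of antiviral protein. The locus given for Oasl1 also holds the antisense entry Gm13822, which has values of its own. The library kit marks strand, but whether counting used it is not given in the sources used here.

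Values are FPKM, fragments scaled by transcript length and library size, and levels are set side by side here between genes and between libraries. The FPKM total itself spanned 2.08-fold over the libraries, so this scaling does not make libraries fully comparable. Counts were not used here and absolute depth is unknown, but the value of 1 fragment lay within a 3.03-fold range across the 14 libraries. No label ties replicates to separate animals or cultures, so p-values reflect only how far these samples lay apart, possibly for technical reasons. All 8 macrophage markers checked, Csf1r and Cd68 among them, were at 1 FPKM or more in every library. However, their sum was lower in cells given Poly I:C first, at 5360 to 8660 FPKM, than in cells given PBS first, at 13900 to 20600 FPKM. Lyz2 made up most of that sum, with a mean over the libraries of 7452 FPKM, and Cd68 came next at 1508 FPKM. Whether each of the other markers was lower as well is not shown here. Markers of B cells and of T and NK cells stayed under 1 FPKM everywhere, summed neutrophil markers reached at most 8.33 FPKM and erythroid markers 0.301 FPKM. The 4 dendritic cell markers, Flt3, Zbtb46, Xcr1 and Siglech, summed to 0.143 to 10.2 FPKM. That sum is mostly Xcr1, whose mean over the libraries was 4.10 FPKM. The means were 0.561 FPKM for Zbtb46, 0.0828 FPKM for Flt3 and 0.0281 FPKM for Siglech. The 3 stromal markers, Col1a1, Col1a2 and Dcn, summed to 13.4 to 102 FPKM. Both sums are given by group beside the results they move with. A change in these pooled cells cannot tell more RNA per cell from more cells of one type.

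Every stimulated group held more of these transcripts than unstimulated macrophages, whose own levels differed widely between entries. By group mean among the 11977 entries tested, the merged Oas1 entry was number 1443 after PBS then PBS at 2 h and Mx2 number 10506. Summed over the 7 entries, the level at 6 h was 2241 and 1893 FPKM in Poly I:C-then-LPS cells, 1043 and 1079 FPKM in Poly I:C-then-PBS cells, 2444 and 3111 FPKM in PBS-then-LPS cells and 49.4 FPKM in PBS-then-PBS cells. At 2 h the sum was 2844 and 2945 FPKM in Poly I:C-then-LPS cells, 2633 and 2657 FPKM in Poly I:C-then-PBS cells, 503 and 312 FPKM in PBS-then-LPS cells and 104 FPKM in PBS-then-PBS cells. As a share of each library's FPKM total, which spanned 2.08-fold over the libraries, the order of the 2 Poly I:C groups at 2 h was the reverse, with 0.325% and 0.305% in Poly I:C-then-LPS cells and 0.424% and 0.436% in Poly I:C-then-PBS cells. PBS then LPS at 2 h had the lowest sums of the stimulated groups, and PBS then PBS lay under every stimulated library at both times.

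**Figure D1:**
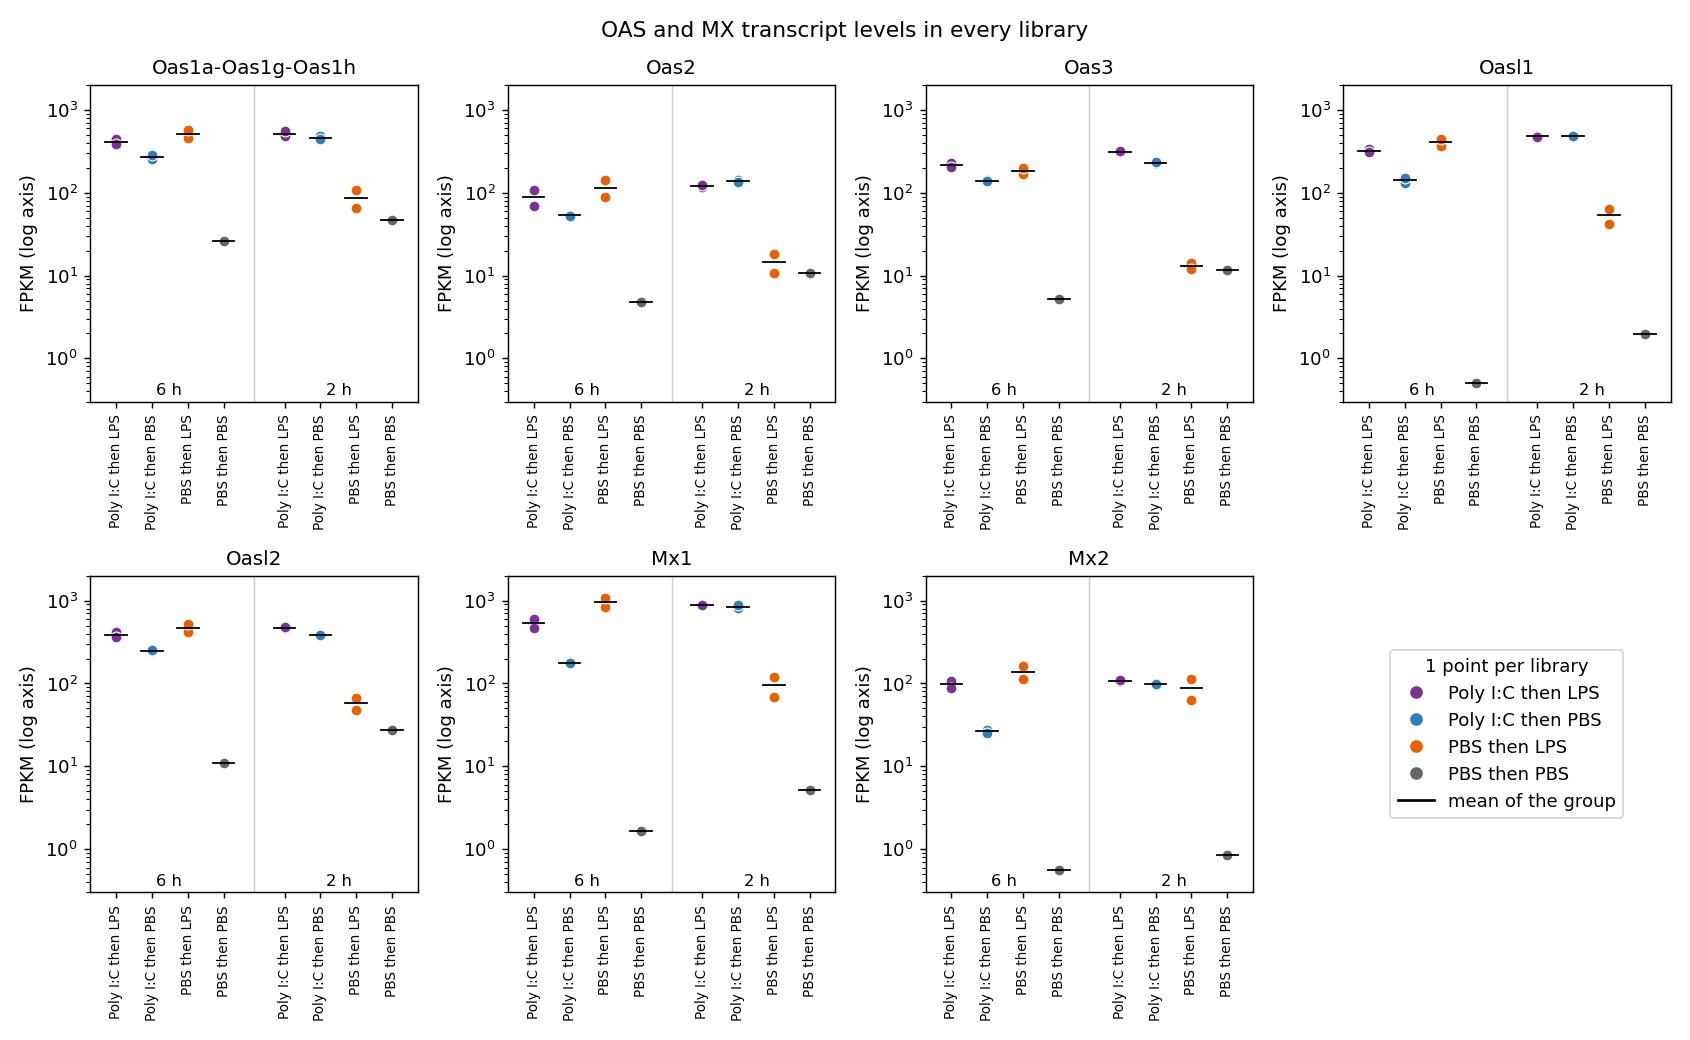
FPKM of the 7 OAS and MX entries in each of the 14 libraries, on a log axis, with 1 panel per entry, groups along the horizontal axis, 1 point per library and a bar at the group mean. The PBS-then-PBS libraries are lowest in every panel but that of Oas2, where 1 PBS-then-LPS library of 2 h lies level with that of PBS then PBS at 2 h, and PBS then LPS at 2 h has the lowest mean of the stimulated groups except in Mx2, where it reaches 63.5 and 113 FPKM.

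The enzymes that make 2-5A come first. The Oas1a-Oas1g-Oas1h entry, of which Oas1a and Oas1g encode active synthetases of the small OAS1 type, stood after 6 h at 442 and 387 FPKM in Poly I:C-then-LPS cells, 259 and 285 FPKM in Poly I:C-then-PBS cells, 454 and 578 FPKM in PBS-then-LPS cells and 25.8 FPKM in PBS-then-PBS cells. Its 2 h level was 478 and 555 FPKM in Poly I:C-then-LPS cells, 482 and 443 FPKM in Poly I:C-then-PBS cells, 107 and 65.9 FPKM in PBS-then-LPS cells and 46.2 FPKM in PBS-then-PBS cells. This was the family's highest entry in both PBS-then-PBS libraries, where it made up 52.3% of the summed level at 6 h and 44.3% at 2 h, and the entry with the narrowest span, 20.0-fold between its highest and lowest group means. Oas1h, which also has an entry of its own on that locus, stayed between 0 and 0.769 FPKM there.

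Oas2, a larger synthetase, was among the 2 lowest entries in every stimulated group. At 6 h it was 108 and 69.5 FPKM in Poly I:C-then-LPS cells, 54.4 and 52.1 FPKM in Poly I:C-then-PBS cells, 88.8 and 142 FPKM in PBS-then-LPS cells and 4.75 FPKM in PBS-then-PBS cells. The 2 h libraries held 118 and 123 FPKM in Poly I:C-then-LPS cells, 141 and 133 FPKM in Poly I:C-then-PBS cells, 18.1 and 10.8 FPKM in PBS-then-LPS cells and 10.8 FPKM in PBS-then-PBS cells. Its highest mean was after Poly I:C then PBS at 2 h, without overlap with the next mean, that of Poly I:C then LPS at 2 h, but within the range of PBS then LPS at 6 h.

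Oas3 is the largest synthetase, built of repeated OAS domains. At 6 h it was 225 and 207 FPKM in Poly I:C-then-LPS cells, 143 and 137 FPKM in Poly I:C-then-PBS cells, 168 and 198 FPKM in PBS-then-LPS cells and 5.18 FPKM in PBS-then-PBS cells. In the 2 h libraries it was 307 and 314 FPKM in Poly I:C-then-LPS cells, 231 and 233 FPKM in Poly I:C-then-PBS cells, 14.2 and 12.2 FPKM in PBS-then-LPS cells and 11.6 FPKM in PBS-then-PBS cells. Its 8 groups did not overlap between neighbours in their order, with Poly I:C then LPS at 2 h on top.

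Oasl1 and Oasl2 are OAS-like genes with a ubiquitin-like tail. Mouse OASL1 makes no 2-5A and is known to hold back translation of Irf7 mRNA, while mouse OASL2 has synthetase activity. At 6 h Oasl1 was 332 and 309 FPKM in Poly I:C-then-LPS cells, 132 and 150.2 FPKM in Poly I:C-then-PBS cells, 365 and 447 FPKM in PBS-then-LPS cells and 0.501 FPKM in PBS-then-PBS cells. Its level at 2 h was 483 and 471 FPKM in Poly I:C-then-LPS cells, 472 and 488 FPKM in Poly I:C-then-PBS cells, 64.0 and 42.3 FPKM in PBS-then-LPS cells and 1.99 FPKM in PBS-then-PBS cells. Its 957-fold span between the highest and lowest group means was the widest of the 7 entries. The lowest was the single PBS-then-PBS library of 6 h, at 0.501 FPKM, so the size of this span is uncertain.

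Oasl2 started higher and moved less. Its 6 h libraries held 419 and 361 FPKM in Poly I:C-then-LPS cells, 243 and 256 FPKM in Poly I:C-then-PBS cells, 417 and 522 FPKM in PBS-then-LPS cells and 10.9 FPKM in PBS-then-PBS cells. Its 2 h libraries held 464 and 479 FPKM in Poly I:C-then-LPS cells, 388 and 387 FPKM in Poly I:C-then-PBS cells, 67.4 and 48.4 FPKM in PBS-then-LPS cells and 27.8 FPKM in PBS-then-PBS cells. The span between its highest and lowest group means was 43.3-fold, and its 3 highest groups each overlapped the next in order.

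Mx1, which in strains with an intact gene restricts influenza virus in the nucleus, had the highest level of the family in 5 of the 8 groups. At 6 h it was 607 and 470.4 FPKM in Poly I:C-then-LPS cells, 183 and 174 FPKM in Poly I:C-then-PBS cells, 838 and 1064 FPKM in PBS-then-LPS cells and 1.66 FPKM in PBS-then-PBS cells. At 2 h it was 887 and 892 FPKM in Poly I:C-then-LPS cells, 824 and 874 FPKM in Poly I:C-then-PBS cells, 119.8 and 69.4 FPKM in PBS-then-LPS cells and 5.14 FPKM in PBS-then-PBS cells. Ranked by group mean among the 11977 entries tested, Mx1 was number 84 after PBS then LPS at 6 h and number 9585 after PBS then PBS at 6 h.

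Mx2, whose protein acts in the cytoplasm where the gene is intact, kept its own order of groups. At 6 h it was 107 and 87.7 FPKM in Poly I:C-then-LPS cells, 27.7 and 25.4 FPKM in Poly I:C-then-PBS cells, 114 and 163 FPKM in PBS-then-LPS cells and 0.556 FPKM in PBS-then-PBS cells. For the 2 h libraries the values were 106 and 109.8 FPKM in Poly I:C-then-LPS cells, 95.0 and 99.8 FPKM in Poly I:C-then-PBS cells, 113 and 63.5 FPKM in PBS-then-LPS cells and 0.846 FPKM in PBS-then-PBS cells. It was the only entry whose lowest stimulated group was Poly I:C then PBS at 6 h, and the only one whose PBS-then-LPS libraries at 2 h overlapped those of Poly I:C then LPS and Poly I:C then PBS at 2 h.

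Each change below is a difference between group means of log2(FPKM + 1), given with its standard error, a scale on which changes of weak genes come out too small, and entries were called at a limma adjusted p under 0.05 over all 11977 tested entries. LPS without earlier Poly I:C raised all 7 entries at 6 h, where 22.9% of tested entries were called higher, with a median change of 5.30 against 0.021 over all tested entries. The Mx1 mean was 572-fold that of the PBS-then-PBS library, a change of 8.47 ± 0.28 (limma adjusted p = 1.22e-08), and the Oasl1 mean 809-fold, a change of 8.07 ± 0.22 (limma adjusted p = 3.67e-09). Oasl1 stood at only 0.501 FPKM in that 1 library, and over other settings its change ran from 7.58 to 9.39. The synthetase genes changed by 4.26 ± 0.26 in the Oas1a-Oas1g-Oas1h entry, 4.30 ± 0.34 in Oas2 and 4.89 ± 0.14 in Oas3. Every PBS-then-LPS library lay above the PBS-then-PBS library in each of the 7 entries.

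At 2 h LPS alone raised 5 of the 7 entries, against 9.47% of tested entries called higher, with a median change of 1.01 against 0.04 over all tested entries. Mx2 had already changed by 5.54 ± 0.30 (limma adjusted p = 2.1e-06), Oasl1 by 4.15 ± 0.22 (limma adjusted p = 1.98e-06) and Mx1 by 3.91 ± 0.28 (limma adjusted p = 8.77e-06). Oasl2 changed by 1.01 ± 0.20 (limma adjusted p = 0.00657), and the Oas1a-Oas1g-Oas1h entry by 0.845 ± 0.255, just inside the threshold (limma adjusted p = 0.0499). Oas2, at 0.34 ± 0.34 (limma adjusted p = 0.547), and Oas3, at 0.17 ± 0.14 (limma adjusted p = 0.469), did not pass, and the Oas2 libraries overlapped the PBS-then-PBS value.

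The call for the merged Oas1 entry was lost in 5 of the 9 other settings tried: without the first PBS-then-LPS library at 2 h (0.50, limma adjusted p = 0.117), with no filter on low values, without limma's intensity trend, with the 2 h libraries alone and with the replicate number as a block (limma adjusted p = 0.272, 0.0617, 0.144 and 0.0737). That library lay above the second in all 7 entries, and both PBS-then-PBS references are 1 library each, lower at 6 h than at 2 h in all 7 entries.

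Poly I:C alone raised all 7 entries at both times, where 18.4% of tested entries were called higher at 6 h and 24.9% at 2 h. Median changes were 4.40 at 6 h and 4.21 at 2 h, against 0.065 and 0.045 over all tested entries at those times. Oasl1 changed by 6.56 ± 0.22 at 6 h and 7.33 ± 0.22 at 2 h, and Mx1 by 6.08 ± 0.28 at 6 h and 7.11 ± 0.28 at 2 h. Least was the change of Oas2 at 6 h, 3.24 ± 0.34 (limma adjusted p = 4.87e-05), and of the Oas1a-Oas1g-Oas1h entry at 2 h, 3.29 ± 0.26 (limma adjusted p = 3.71e-06). Stromal markers summed to 52.9 to 53.6 FPKM in Poly I:C-then-PBS cells at 2 h and 39.1 to 102 FPKM in Poly I:C-then-LPS cells at 2 h, against 13.4 to 14.1 FPKM in PBS-then-LPS cells and 18.4 FPKM in PBS-then-PBS cells at that time. At 6 h the sums were 38.5 to 48.0 FPKM in Poly I:C-then-LPS cells, 20.7 to 37.4 FPKM in Poly I:C-then-PBS cells, 21.0 to 55.1 FPKM in PBS-then-LPS cells and 16.6 FPKM in PBS-then-PBS cells. Dendritic cell markers at 2 h summed to 9.79 to 10.2 FPKM in Poly I:C-then-LPS cells, 7.34 to 8.77 FPKM in Poly I:C-then-PBS cells, 2.85 to 3.41 FPKM in PBS-then-LPS cells and 0.548 FPKM in PBS-then-PBS cells. At 6 h their sums were 4.07 to 4.21 FPKM in Poly I:C-then-LPS cells, 3.87 to 4.30 FPKM in Poly I:C-then-PBS cells, 3.37 to 3.93 FPKM in PBS-then-LPS cells and 0.143 FPKM in PBS-then-PBS cells. The part of other cell types and of the shift in the macrophage marker sum in these results was not tested.

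**Figure D2:**
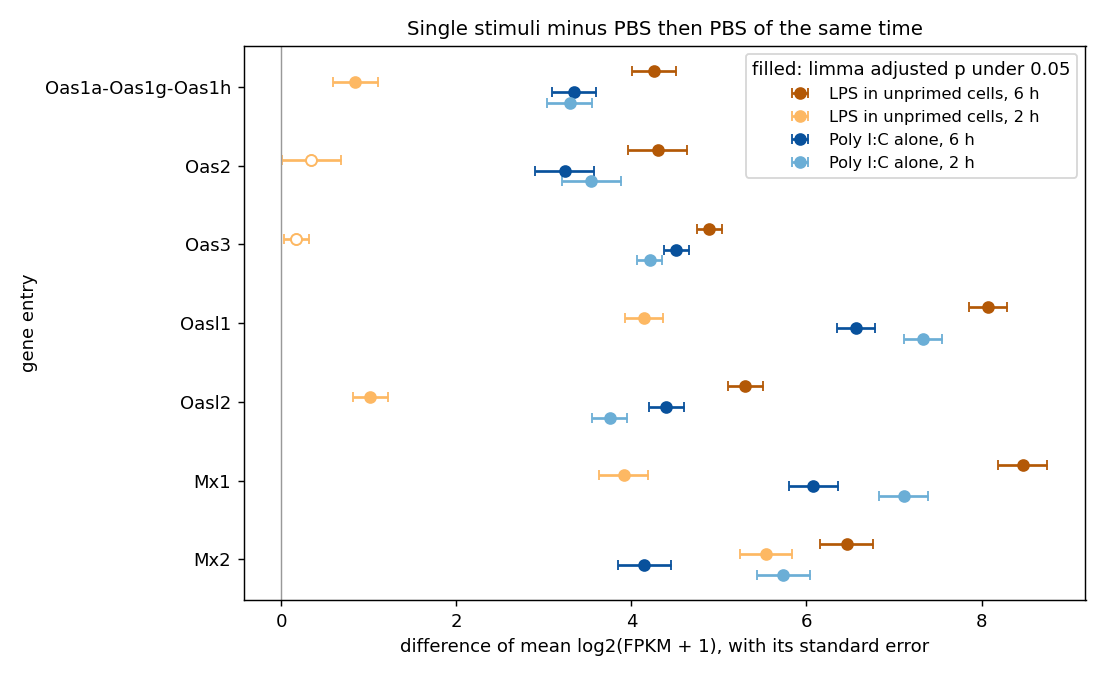
Change of each OAS and MX entry after LPS alone (brown at 6 h, pale orange at 2 h) and Poly I:C alone (dark blue at 6 h, light blue at 2 h) against the PBS-then-PBS library of the same time, in log2(FPKM + 1) with its standard error. Filled points passed a limma adjusted p of 0.05, and the open points are Oas2 and Oas3 after 2 h of LPS, at 0.34 and 0.17.

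Poly I:C alone and LPS alone differed in opposite directions at the 2 times. Poly I:C then PBS lay under PBS then LPS at 6 h in all 7 entries, against 28.4% of tested entries called lower, by -2.39 ± 0.23 in Mx1 and -2.31 ± 0.25 in Mx2 at most and -0.38 ± 0.12 in Oas3 at least (limma adjusted p = 0.019). At 2 h it lay above in 6 of 7 entries, against 30.5% of tested entries called higher. There Oas3 differed by 4.04 ± 0.12 (limma adjusted p = 5.24e-09), Mx1 by 3.20 ± 0.23 and the merged Oas1 entry by 2.45 ± 0.21, while Mx2 differed by 0.20 ± 0.25 (limma adjusted p = 0.503), with overlapping libraries. At 6 h the Oas3 call was lost without the second library of either group (limma adjusted p = 0.148 without that of PBS then LPS and 0.0887 without that of Poly I:C then PBS), and the Oas2 call, at -1.06 ± 0.27, without the second PBS-then-LPS library (limma adjusted p = 0.0787). With no filter on low values the Oas2 call at 6 h was lost as well (limma adjusted p = 0.0848). LPS had been on the cells for 2 h or 6 h. Poly I:C had been given 24 h before the second addition and washed out, so exposures were not matched in time.

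LPS added after Poly I:C raised 6 of the 7 entries at 6 h, against 21.7% of tested entries called higher. The changes ran from 0.607 ± 0.208 in the Oas1a-Oas1g-Oas1h entry (limma adjusted p = 0.0376) to 1.83 ± 0.25 in Mx2 (limma adjusted p = 1.65e-04), with Mx1 at 1.57 ± 0.23 and Oasl1 at 1.18 ± 0.18. Oas2, at 0.70 ± 0.27, did not pass (limma adjusted p = 0.064). The Poly I:C-then-LPS libraries lay above the Poly I:C-then-PBS libraries in all 7 entries. With no filter on low values the merged entry and Oasl2 lost their calls (limma adjusted p = 0.218 and 0.0666). The merged entry lost its call without any one library of the 2 groups (limma adjusted p = 0.0732 to 0.185) and with the replicate number as a block (limma adjusted p = 0.0528). Oasl2 lost its call without the first Poly I:C-then-LPS library (limma adjusted p = 0.0823), and Oas2 gained one without the second, at 1.01 (limma adjusted p = 0.0312).

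When LPS was added after Poly I:C for 2 h, 1 entry, Oas3, was called higher, at 0.42 ± 0.12 (limma adjusted p = 0.0258), against 22.8% of tested entries called in either direction, and it lost the call without any one of the 4 libraries (limma adjusted p = 0.0957 to 0.133). The other changes ran from -0.19 ± 0.27 in Oas2 to 0.28 ± 0.16 in Oasl2. In Oasl1 the Poly I:C-then-LPS and Poly I:C-then-PBS libraries overlapped, and the difference was -0.01 ± 0.18 (limma adjusted p = 0.983).

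Whether the change made by LPS differed with earlier Poly I:C was tested as an interaction, the change after Poly I:C minus the change after PBS. The same value is the difference of Poly I:C then LPS from PBS then LPS, less the change after Poly I:C alone. At 6 h those 2 parts were -0.82 and 6.08 in Mx1, and 0.25 and 4.51 in Oas3. Most of the interaction at 6 h is thus the level already raised by Poly I:C alone. At 6 h it was called below 0 in all 7 entries, against 16.7% of tested entries called below 0, and ran from -6.90 ± 0.36 in Mx1 and -6.89 ± 0.28 in Oasl1 to -3.60 ± 0.43 in Oas2. At 2 h it was called below 0 in 3 of 7, against 1.77% of tested entries called below 0, with -5.39 ± 0.39 in Mx2 (limma adjusted p = 5.45e-05), -4.16 ± 0.28 in Oasl1 (limma adjusted p = 4.75e-05) and -3.84 ± 0.36 in Mx1 (limma adjusted p = 2.84e-04). The other entries ran from -0.73 ± 0.26 in Oasl2 to 0.25 ± 0.18 in Oas3 and did not pass. Without the second PBS-then-LPS library at 2 h the count was 5, with the Oas1a-Oas1g-Oas1h entry at -1.03 (limma adjusted p = 0.0232) and Oasl2 at -0.97 (limma adjusted p = 0.0166) added.

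The comparison at the centre of the design set Poly I:C then LPS against PBS then LPS. At 6 h 1 of 7 entries was lower and none higher, against 25.9% of tested entries called lower and 23.7% higher, and the median change was -0.331 against -0.00019 over all tested entries. Mx1 was lower after Poly I:C then LPS, at 539 ± 96.8 FPKM, than after PBS then LPS, at 951 ± 159 FPKM (SD, n = 2 libraries each), a change of -0.82 ± 0.23 (limma adjusted p = 0.0129) with no overlap. The call rested on the second library of each group, since it was lost without that of PBS then LPS (-0.65, limma adjusted p = 0.0984) or that of Poly I:C then LPS (-0.64, limma adjusted p = 0.102). Oas3 was the one entry with a positive difference, 0.25 ± 0.12 (limma adjusted p = 0.105). The remaining 5 did not pass and ran from -0.48 ± 0.25 in Mx2 to -0.26 ± 0.16 in Oasl2. In all 7 entries the second PBS-then-LPS library at 6 h lay above the first, and the second Poly I:C-then-LPS library lay below the first.

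At 2 h Poly I:C then LPS exceeded PBS then LPS in 6 of 7 entries, against 32.6% of tested entries called higher, with a median change of 3.02 against 0.054 over all tested entries. Oas3 differed most, at 311 ± 5.38 FPKM in Poly I:C-then-LPS cells and 13.2 ± 1.47 FPKM in PBS-then-LPS cells (SD, n = 2 libraries each), a change of 4.46 ± 0.12 and 23.5-fold between the means (limma adjusted p = 2.66e-09). Mx1 changed by 3.27 ± 0.23, Oasl1 by 3.17 ± 0.18, Oasl2 by 3.02 ± 0.16, Oas2 by 3.01 ± 0.27 and the Oas1a-Oas1g-Oas1h entry by 2.61 ± 0.21, without overlap between groups in any of them. Mx2 stood at 108 ± 2.55 FPKM in Poly I:C-then-LPS cells and 88.2 ± 35.0 FPKM in PBS-then-LPS cells, 0.35 ± 0.25 apart (limma adjusted p = 0.243). Without the first PBS-then-LPS library the Mx2 difference was 0.76, but over all settings it ran from -0.065 to 0.758. That library, at 113 FPKM, lay above both Poly I:C-then-LPS libraries, at 106 and 109.8 FPKM, and the second PBS-then-LPS library, at 63.5 FPKM, below them.

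**Figure D3:**
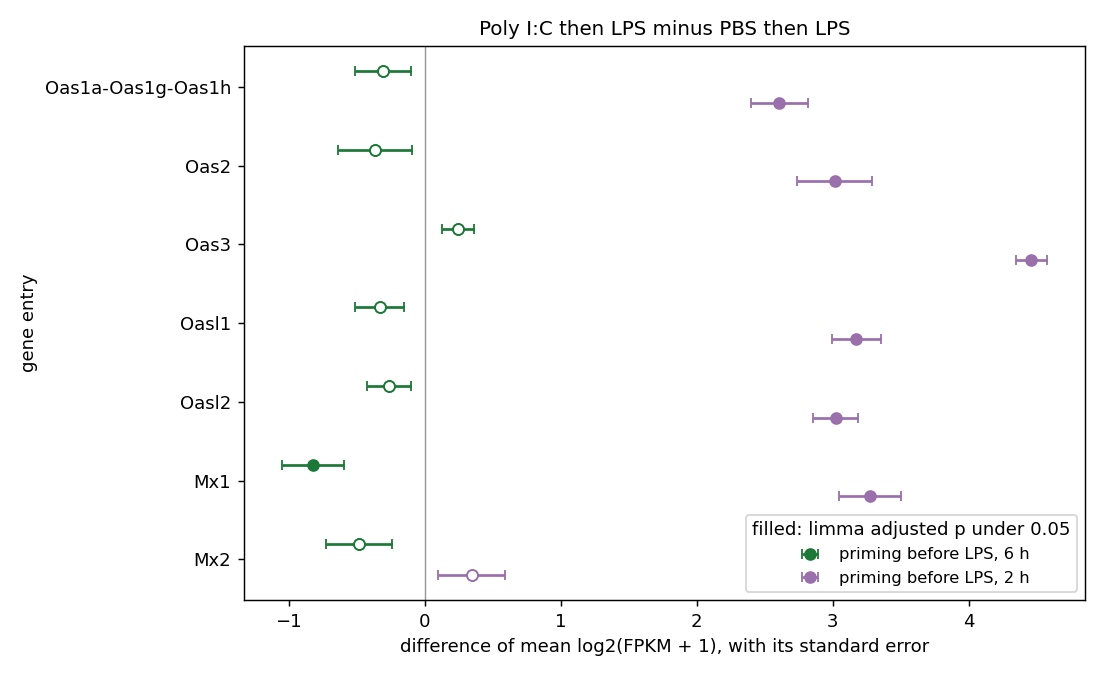
Difference between Poly I:C then LPS and PBS then LPS for each OAS and MX entry at 6 h (green) and 2 h (purple), in log2(FPKM + 1) with its standard error. Filled points passed a limma adjusted p of 0.05: at 2 h these are 6 entries between 2.61 and 4.46, with Mx2 open at 0.35, and at 6 h only Mx1, at -0.82.

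The difference between 6 h and 2 h in this comparison was itself called below 0 in 6 of 7 entries, against 25.3% of tested entries called below 0. It ran from -4.21 ± 0.17 in Oas3 (limma adjusted p = 1.44e-07) to -2.91 ± 0.29 in the Oas1a-Oas1g-Oas1h entry (limma adjusted p = 3.43e-05). In Mx2 it was -0.83 ± 0.35 (limma adjusted p = 0.0769), and it passed without the first PBS-then-LPS library of 2 h (-1.24, limma adjusted p = 0.00411) or of 6 h (-1.09, limma adjusted p = 0.0434).

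Followed over time, PBS-then-LPS cells were higher at 6 h than at 2 h in all 7 entries, against 23.4% of tested entries called higher. The 2 h mean was 63.9% of the 6 h mean in Mx2, and between 7.22% in Oas3 and 16.7% in the Oas1a-Oas1g-Oas1h entry for the rest. Oas3 changed by 3.69 ± 0.12 (limma adjusted p = 1.85e-08) and Mx2 by 0.68 ± 0.25 (limma adjusted p = 0.0427). Mx2 did not pass with no filter on low values (limma adjusted p = 0.255) or without limma's intensity trend (limma adjusted p = 0.0507). The Mx2 call was lost without the second library of 2 h (0.26, limma adjusted p = 0.292) or of 6 h (0.42, limma adjusted p = 0.276), and with the replicate number as a block (limma adjusted p = 0.054).

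In Poly I:C-then-PBS cells all 7 entries were lower at 6 h than at 2 h after the medium change, against 18.0% of tested entries called lower. The 6 h mean was 21.1% of the 2 h mean in Mx1, 27.3% in Mx2 and 29.4% in Oasl1, against 38.9% in Oas2, 58.7% in the Oas1a-Oas1g-Oas1h entry, 60.4% in Oas3 and 64.4% in Oasl2. Mx1 changed by -2.24 ± 0.23 (limma adjusted p = 1.22e-04) and Oasl2 by -0.63 ± 0.16 (limma adjusted p = 0.0159). Without any one of the 4 libraries, Oasl2 (limma adjusted p = 0.0621 to 0.0761) and the merged Oas1 entry (limma adjusted p = 0.0655 to 0.109) did not pass. With all libraries the merged entry changed by -0.77 ± 0.21. The single PBS-then-PBS libraries were also lower at 6 h than at 2 h in all 7 entries. Against PBS then PBS of the same time, the Poly I:C change was larger at 6 h than at 2 h in 3 entries. These were the merged Oas1 entry (3.34 and 3.29), Oas3 (4.51 and 4.21) and Oasl2 (4.40 and 3.75). It was smaller at 6 h in the others, such as Mx1 (6.08 and 7.11). These differences between times were not tested.

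After Poly I:C then LPS, 3 of 7 entries were lower at 6 h than at 2 h, against 25.3% of tested entries called lower. They were Mx1 at -0.73 ± 0.23, Oasl1 at -0.57 ± 0.18 and Oas3 at -0.52 ± 0.12 (limma adjusted p = 0.0266, 0.0264 and 0.00553), with 6 h means of 60.6%, 67.2% and 69.6% of the 2 h means. Leaving out 1 library left between 0 and 2 of these calls. The 6 h mean of Mx2 was 90.2% of its 2 h mean, with overlapping libraries.

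Ratios between relatives within a library were looked at after the values had been seen. Mx1 over Mx2 was 5.36 to 8.75 in the 10 stimulated libraries other than PBS then LPS at 2 h, where it was 1.06 and 1.09, and it was 2.99 in the PBS-then-PBS library of 6 h and 6.07 in that of 2 h. Put as FPKM gained over PBS then PBS, 2 h of LPS added 89.5 FPKM of Mx1 and 87.4 FPKM of Mx2, and 6 h added 949 and 137 FPKM. Oasl1 over Oasl2 was 0.543 to 1.26 in every stimulated library, against 0.0461 in the PBS-then-PBS library of 6 h and 0.0716 in that of 2 h. Oas3 over Oas2 ranged from 0.785, in a PBS-then-LPS library of 2 h, to 2.98, in a Poly I:C-then-LPS library of 6 h. In the coding sequences of GENCODE M21, Mx1 and Mx2 were 73.3% identical and Oasl1 and Oasl2 60.1%.

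**Figure D4:**
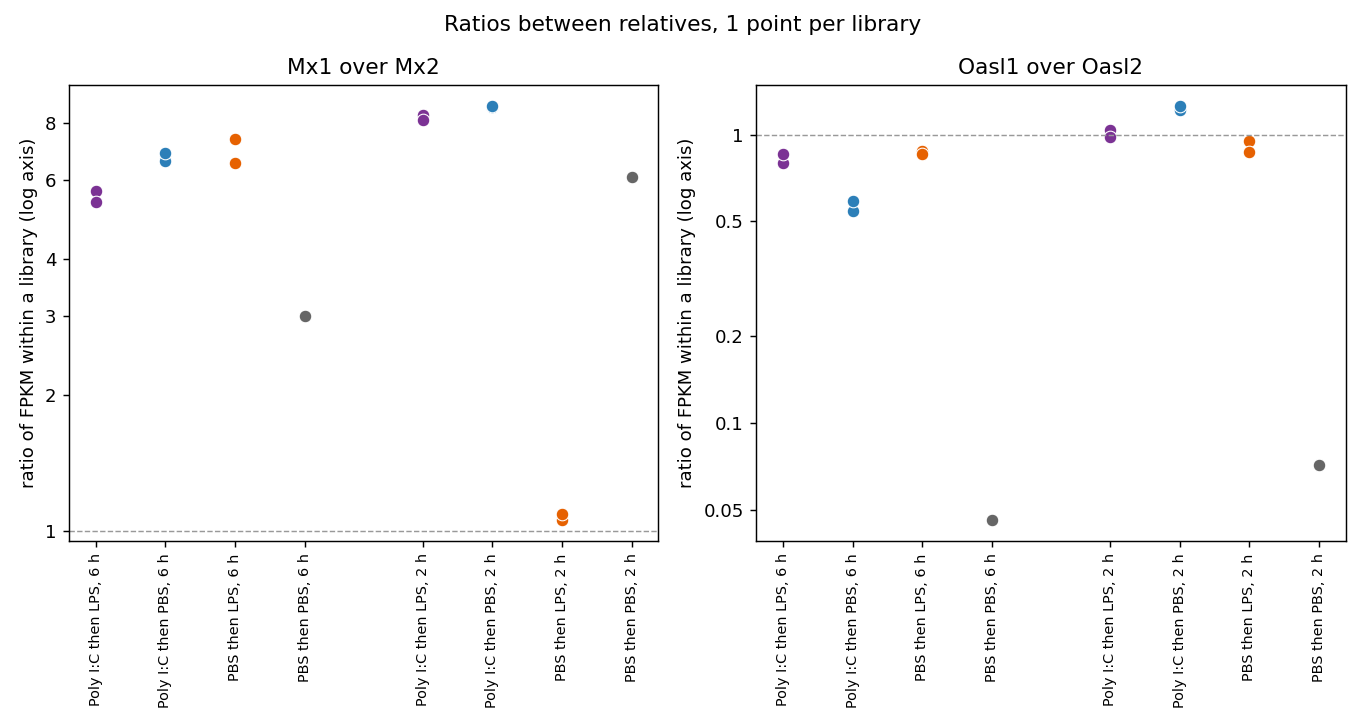
FPKM ratio within each library of Mx1 over Mx2 (left) and of Oasl1 over Oasl2 (right), on log axes, with 1 point per library and groups along the horizontal axis. Mx1 over Mx2 is 1.06 and 1.09 after PBS then LPS at 2 h and at least 5.36 in the other stimulated libraries, and Oasl1 over Oasl2 is lowest, at 0.0461 and 0.0716, in the PBS-then-PBS libraries.

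The profiles of the 7 entries over the 14 libraries were alike, with Mx2 the least so. Pearson correlations of log2(FPKM + 1) between entries ran from 0.6956, between Oas3 and Mx2, to 0.9967, between the Oas1a-Oas1g-Oas1h entry and Oasl2. The libraries fall into separate groups, so these values describe groups of libraries and carry no test. Profiles were then sought among the other tested entries that name 1 gene, with the 7 entries themselves left out. Among these, the profile most like the mean of the 7 entries was that of Gbp2 at 0.9941. Next came Gbp3 (0.9913), Ifit2 (0.9904), Cd47 (0.9891), Irgm1 (0.988), Oas1b (0.9879), Isg15 (0.9874), Rnf114 (0.9864), Rtp4 (0.9859) and Znfx1 (0.9855).

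The closest profiles differed between entries. For Mx1 they were Ifit2 (0.9927), Isg15 and Rtp4, and for Oasl1 the same 3 genes led by Isg15 (0.9928). For Mx2 they were Ifit1 (0.9834), Irg1 (0.9771) and the chemokine gene Cxcl10 (0.9753). Zbp1, a sensor of Z-form nucleic acids, led for both the merged Oas1 entry (0.9936) and Oasl2 (0.9944). Rnf114 and Ifi35 came next for the merged Oas1 entry, and Gbp2 and Pyhin1 for Oasl2. Oas2 was closest to Usb1 (0.9878), Gm10271 and Stat2, and Oas3 to Phf11d (0.9961), Ifi44 and Isg20. None of these genes was named for the same profile when Spearman's correlation was used.

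With Poly I:C before LPS, 23.7% of all tested entries were called higher and 25.9% lower at 6 h, and 32.6% higher and 28.5% lower at 2 h. Of 8 other OAS and 2-5A genes described, 4 passed the filter on low values, and Oas1d, Oas1e, Oas1f and the separate Oas1h entry did not. With Poly I:C before LPS, 2 of the 4 were higher and none lower at 6 h (median 0.633), and 2 were higher and 1 lower at 2 h (median 1.51).

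Abce1, whose product recycles ribosomes, changed by 0.94 ± 0.15 at 6 h and by -1.34 ± 0.15 at 2 h (limma adjusted p = 5e-04 and 2.79e-05). The entry Pde12-mmu-mir-7672, which holds the 2-5A-degrading enzyme gene Pde12, was higher at 6 h by 0.785 ± 0.145. Oas1b, annotated as a pseudogene in this strain, was higher at 2 h by 2.89 ± 0.26 and Oas1c by 2.97 ± 0.15. These genes share an assembled locus, and neither passed at 6 h.

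Of the other dynamin superfamily genes, 5 of 7 were tested. With Poly I:C before LPS, 1 was higher and 1 lower at 6 h (median -0.0622), and 2 were higher at 2 h (median -0.0275). Dnm1l, which drives mitochondrial fission, was higher by 1.45 ± 0.20 at 6 h and 1.14 ± 0.20 at 2 h, Dnm2, which cuts endocytic vesicles free, by 0.91 ± 0.11 at 2 h, and Mfn2, a mitochondrial fusion gene, changed by -0.58 ± 0.14 at 6 h.

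Sensors of double-stranded RNA and related genes were mostly lower at 6 h. Of 8 tested, 6 were lower and none higher at 6 h (median -0.635), with Tlr3 at -1.15 ± 0.15, Ifih1 at -1.12 ± 0.17, the Eif2ak2-Gm6548 entry, which holds the kinase PKR, at -0.89 ± 0.11 and Ddx58, which encodes RIG-I, at -0.68 ± 0.12. At 2 h 7 were higher and 1 lower (median 2.36), led by Zbp1 at 4.48 ± 0.18, Tlr3 at 3.57 ± 0.15, Ddx58 at 3.27 ± 0.12 and Adar, an RNA-editing enzyme, at 2.37 ± 0.13. Mavs, the adaptor of the cytosolic sensors, was the one lower, at -0.56 ± 0.16. The differences between these lists and the OAS and MX entries were not tested.

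In the interferon signalling chain, 12 of 12 entries described were tested. With Poly I:C given first, 2 of them were higher and 2 lower after 6 h of LPS (median 0.135). Ifnb1, the interferon-beta gene, stood at 30.5 ± 2.15 FPKM in Poly I:C-then-LPS cells and 6.32 ± 2.61 FPKM in PBS-then-LPS cells, a change of 2.15 ± 0.36, at the time when no OAS or MX entry was called higher. Irf1 was higher by 0.82 ± 0.23, while the receptor gene Ifnar1 changed by -0.86 ± 0.11 and Stat2 by -0.52 ± 0.19. At 2 h 10 were higher and 1 lower (median 1.54), with Irf7 at 5.50 ± 0.25, the interferon feedback inhibitor Usp18 at 4.77 ± 0.26, Stat2 at 3.26 ± 0.19 and the kinase gene Tyk2 at 2.37 ± 0.11, and the feedback inhibitor Socs1 lower at -1.97 ± 0.41.

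After 2 h of LPS alone, when Mx2, Oasl1 and Mx1 had the largest changes of the 7 OAS and MX entries, 7 of these 12 were higher and none lower (median 0.926), against 9.47% of tested entries called higher. Ifnb1 changed by 5.39 ± 0.45, Socs1 by 5.00 ± 0.50, Irf1 by 4.99 ± 0.28 and Usp18 by 2.18 ± 0.32. Stat2, at 0.70 ± 0.24 (limma adjusted p = 0.0782), did not pass, and at 6 h it changed by 4.50 ± 0.24. At 6 h of LPS alone, where 22.9% of tested entries were called higher, 11 of the 12 were higher (median 2.58), as were 7 of 8 sensors (median 4.24) and 2 of 4 other OAS and 2-5A genes, of which 1, Abce1, was lower (median 1.23).

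**Figure D5:**
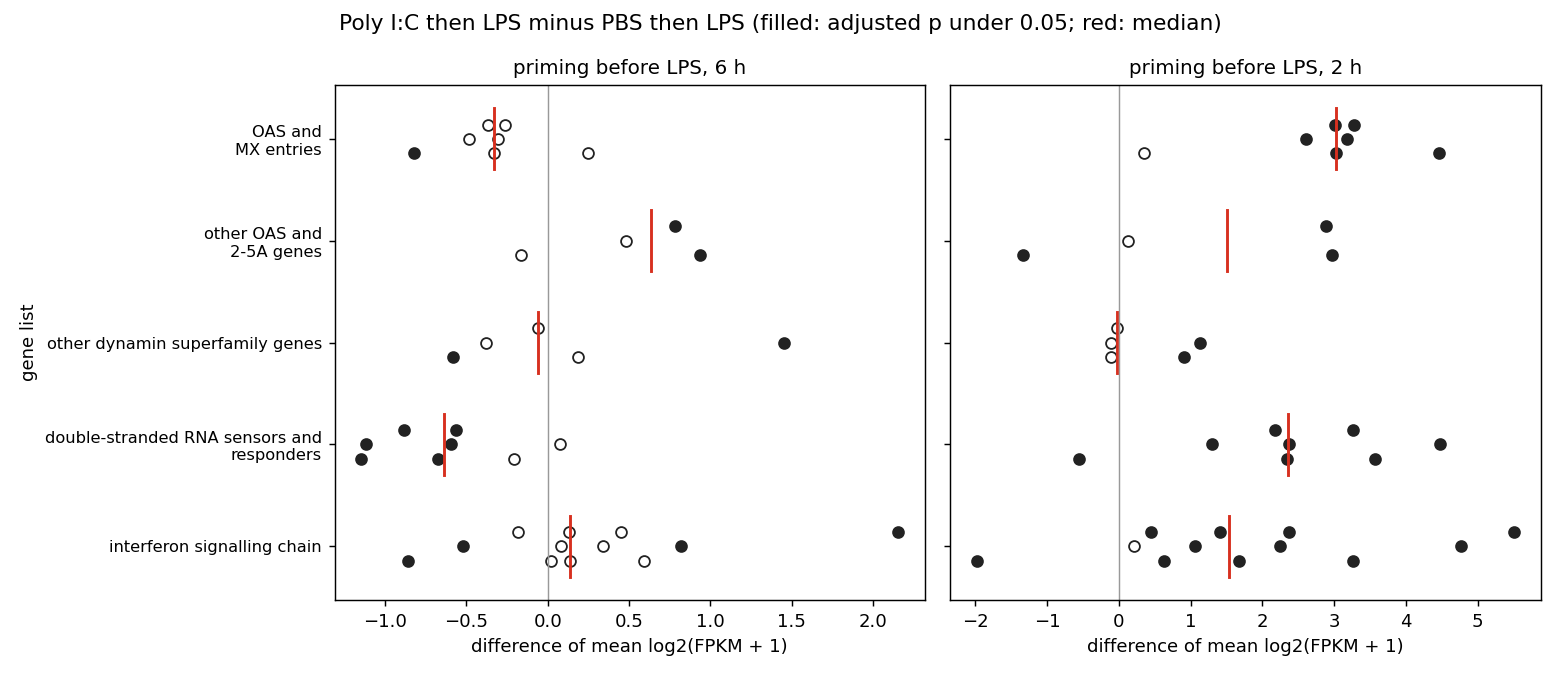
Difference between Poly I:C then LPS and PBS then LPS at 6 h (left) and 2 h (right), in log2(FPKM + 1), for the OAS and MX entries and 4 lists of related genes, with 1 point per tested entry, filled at a limma adjusted p under 0.05, and a red line at each list's median. At 6 h the OAS and MX median is -0.331 and that of the double-stranded RNA sensors -0.635; at 2 h they are 3.02 and 2.36.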

How the data were processed

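Polyadenylated RNA of 14 macrophage libraries was sequenced as paired 76 bp reads with a strand-marking kit, per the labels' protocols. TopHat2, Cufflinks and Cuffnorm are named without versions in the submitters' processing notes. The deposited values are FPKM scaled by Cuffnorm, the authors' only unit here, so count tests could not be used. The labels name build mm9, but of 33853 entries matched by name to GENCODE M21, 33792 overlapped the GRCm38 gene and 13322 had its start and end, so GRCm38 coordinates are printed, as the entry's assembled locus. The labels number replicates but do not say that the numbers pair samples. Deviations of like-numbered libraries correlated at -0.19 to 0.078 over 15 pairs of groups.

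FPKM values were transformed as log2(FPKM + 1). The test took in 11977 of 37862 named entries, those reaching 1 FPKM in 2 or more libraries, which kept all 7 OAS and MX entries: Oasl1 reached 1 FPKM in 13 libraries, Mx2 in 12 and the others in 14. limma 3.58.1 under R 4.3.3 fitted group means to the 14 libraries together, its variance prior following intensity. Residual degrees of freedom were 6, and the prior added a median of 3.99. Each single PBS-then-PBS library was assumed to vary like the other groups. Tests were 2-sided with Benjamini-Hochberg adjustment over all tested entries, and the pipeline was tested on simulated data. The members and the 4 related lists were chosen with earlier results of these data known, and 2 listed genes are not reported here. Each list is described by counts and medians, with up to 4 called members of largest change named, and members that moved against their list. Comparisons that share libraries are not independent. Other settings tried were median-of-ratios scaling, no filter, a pseudocount of 0.1, no trend, 1 time at a time, the PBS-then-PBS libraries joined into 1 group, a replicate term, Spearman's correlation and leaving out each replicate, and, added after seeing the data, leaving out the merged entry. Sequences are RefSeq's, read for 5 of the 8 genes, and identities were computed with Biopython 1.88 in Python 3.11.15. Intervals from counting are not given because depth is unknown.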

Additional observations from a re-analysis of the deposited data

Results flagged for a closer look

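Results were picked out here where the effect of one stimulus differed between conditions by limma's test of the difference itself, at an adjusted p under 0.05 over all tested entries. Such differences were called below 0 for 25.3% of entries between the times, for 16.7% in the interaction at 6 h and for 1.77% in that at 2 h. No group had enough libraries to look for an outlying one.

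The difference that Poly I:C before LPS made was called smaller at 6 h than at 2 h in 6 entries. The 6 h effect minus the 2 h effect was -4.21 in Oas3, -4.09 in Mx1, -3.50 in Oasl1, -3.38 in Oas2, -3.28 in Oasl2 and -2.91 in the Oas1a-Oas1g-Oas1h entry. For Oas3 this set 216 FPKM in Poly I:C-then-LPS cells and 183 FPKM in PBS-then-LPS cells at 6 h beside 311 FPKM and 13.2 FPKM in those cells at 2 h.

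The change made by LPS at 6 h was called smaller after Poly I:C than after PBS in all 7 entries. The change after Poly I:C minus the change after PBS was -6.90 in Mx1, -6.89 in Oasl1, -4.66 in Oasl2, -4.63 in Mx2, -4.26 in Oas3, -3.65 in the Oas1a-Oas1g-Oas1h entry and -3.60 in Oas2. At 2 h it was called in 3, at -5.39 in Mx2, -4.16 in Oasl1 and -3.84 in Mx1. Each of these rests on 1 PBS-then-PBS library and takes in the level already raised by Poly I:C alone.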

How the results depend on the processing

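Over all comparisons and settings 1134 recomputed changes of single entries were set beside the reported ones. Of these, 1074 kept their side of the threshold, 53 lost a call, 7 gained one and 0 calls reversed. Some changes not called with all libraries switched sign between settings, as in Mx2 for Poly I:C before LPS at 2 h (-0.065 to 0.758). With no filter on low values, which adjusts over more entries, fewer of the 7 entries were called in several comparisons. The number became 0 for Poly I:C before LPS at 6 h (1 reported), 3 for LPS alone at 2 h (5) and 0 for LPS after Poly I:C at 2 h (1). It became 1 for Poly I:C then LPS at 6 h against 2 h (3) and 4 for Poly I:C alone at 6 h against 2 h (7). For LPS after Poly I:C at 6 h it became 4 (6). It became 6 for Poly I:C alone against LPS alone at 6 h (7) and 6 for LPS alone at 6 h against 2 h (7). The libraries of 2 h alone gave 0 for LPS after Poly I:C at 2 h. This setting gives no value between times, and the PBS-then-PBS libraries were not left out. Leaving out 1 library gave 0 to 1 entries called for Poly I:C before LPS at 6 h and 6 to 7 at 2 h, 7 for LPS alone at 6 h and 4 to 5 at 2 h, 4 to 6 for LPS after Poly I:C at 6 h and 0 at 2 h, 7 for Poly I:C alone at both times, 5 to 7 for Poly I:C alone against LPS alone at 6 h and 6 to 7 at 2 h, 7 for the interaction at 6 h and 3 to 5 at 2 h, 6 to 7 for LPS alone between times, 0 to 2 for Poly I:C then LPS between times, 5 for Poly I:C alone between times, and 6 to 7 for the difference of the Poly I:C effect between times. The cause was not tested.

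The labels do not say whether like-numbered replicates share a source. With the replicate number as a block 4 entries were called for LPS alone at 2 h and 5 for LPS after Poly I:C at 6 h. Over all tested entries, counts of calls moved by more than 1.5 times for LPS alone at 2 h (1899 reported), to 1176 with the 2 h libraries alone, 2873 with both PBS-then-PBS libraries as 1 group and 3703 without the second PBS-then-LPS library. They moved for the interaction at 2 h (514) to 195 with the 2 h libraries alone and 276 to 1637 without 1 library, and for LPS after Poly I:C at 2 h (2725) to 1543 to 1812 without 1 library. For Poly I:C alone between times (3636) they moved to 2176 with no filter, and to 2013 to 2114 without either library of 2 h or the second of 6 h. Without the first of 6 h they moved by less than 1.5 times. Leaving out the merged entry changed no other entry's call.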

Other observations

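The antisense entry Gm13822, annotated at the 5′ end of Oasl1 and on its assembled locus, was listed at 28.5 and 28.2 FPKM in Poly I:C-then-LPS cells, 30.2 and 25.1 FPKM in Poly I:C-then-PBS cells, 18.4 and 12.9 FPKM in PBS-then-LPS cells and 0 FPKM in PBS-then-PBS cells at 6 h. At 2 h it was listed at 74.5 and 79.0 FPKM in Poly I:C-then-LPS cells, 65.3 and 63.9 FPKM in Poly I:C-then-PBS cells, 3.79 and 0.901 FPKM in PBS-then-LPS cells and 0.128 FPKM in PBS-then-PBS cells. At 6 h both Poly I:C-then-LPS libraries lay above both PBS-then-LPS libraries in Gm13822 and below them in Oasl1. It was chosen after its values were seen, no test was run, and reads of Oasl1 and Gm13822 cannot be told apart unless the counting used strand.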
